A study of Drosophila melanogaster with 4 samples.

Results

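The oxidative phosphorylation genes of Drosophila melanogaster pole cells were followed here, complex by complex. They are the genes whose only symbol in the platform's probe annotation begins with ND- (complex I), SdhA to SdhD (complex II), UQCR (complex III), COX and a digit (complex IV) or ATPsyn (complex V). The rule gave 69 of the 10804 genes on the arrays, measured by 104 probes, with 30 genes of complex I, 6 of complex II, 5 of complex III, 13 of complex IV and 15 of complex V. The RefSeq gene table holds 90 symbols of that form, and the other 21 were not analysed here. Those include SdhA, the UQCR-C1 and UQCR-C2 core proteins, ND-23, ND-24, ND-30, ND-49, COX8 and the COX subunits of the mitochondrial genome. Of the 69 genes, 20 are copies of a subunit gene, told by a final L or L and digit in the symbol (SdhBL beside SdhB), and the other 49 are called subunits below.

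Oxidative phosphorylation passes electrons from NADH through complex I, or from succinate through complex II, to ubiquinone. Complex III hands them on to cytochrome c and complex IV to oxygen, and complex V, the ATP synthase, uses the proton gradient that complexes I, III and IV build up. Most subunits are encoded in the nucleus and made in the cytosol, while a small set of hydrophobic ones is encoded in mitochondrial DNA. Pole cells inherit mitochondria gathered at the posterior pole of the egg, and mitochondrial DNA reaches the next generation through them. In flies many subunits have a second gene copy, and many such copies are known for expression in the testis.

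Pole cells, the precursors of the germ line, had been sorted by FACS on the germ-line marker EGFP-Vas from embryos at stages 8 to 14. Each of the 4 arrays carried 2 colours and set RNA of driven cells against RNA of non-driven cells, from 100 ng of total RNA before amplification. In the D168A pair, the fathers brought UAS-tao-1(D168A) together with EGFP-Vas, and in the D168D pair UAS-tao-1(D168D) with the same marker. Mothers of driven embryos were homozygous for nosGal4:VP16, a germ-line driver under nanos control, and mothers of non-driven embryos were yw. Both sides of every array thus carry the UAS transgene and EGFP-Vas, and driver and maternal genotype cannot be told apart from the transgene's expression. The labels call D168A dominant negative. D168D is a wild-type form in the series title and is tagged gof in the sample titles, while the descriptions speak of overexpression. Tao is a Ste20-family kinase of the Hippo and microtubule pathways. How many embryos or collections went into a pair is not given in the sources used here.

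Values are log2 ratios of driven over non-driven cells, so a value below 0 is a lower RNA level in driven cells. A form was hybridised on 2 arrays, with driven RNA in Cy3 on the first and in Cy5 on the other, and array values below are given in that order. Such a dye swap is 1 replicate. The figure after ± is how far each array lies from its form's mean, and it covers dye and hybridisation but no biological spread. The targeted gene Tao was at 2.98 and 2.84 in the D168A pair and 3.04 and 2.99 in the D168D pair. Across all genes the dye-swapped arrays correlated at r = -0.10 with D168A and r = 0.01 with D168D. The files hold ratios without intensities, so levels, signal over background and depth are unknown, and precision is limited by how few arrays there are.

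The oxidative phosphorylation genes showed small ratios that leaned below 0 in both forms. None of the 69 genes was 2-fold higher or lower on both arrays of a form, where 0.148% of all genes were 2-fold higher and 0.00926% lower with D168A, and 0.157% and 0.00926% with D168D. With D168A, 24 genes (34.8%) lay below 0 on both arrays, against 21.5% of all genes, and 8 lay above 0 on both, against 24.4%. With D168D, 30 genes (43.5%) lay below 0 on both arrays, against 24.1% of all genes, and 5 lay above 0 on both, against 23.3%. Below 0 on all 4 arrays were 16 genes (23.2%), against 8.26% of all genes, and 2 genes, COX7A and COX4L, were above 0 on all 4, against 9.33%. The median log2 ratio of the 69 genes was -0.03 with D168A and -0.11 with D168D, where all genes were at 0.01 with D168A and -0.01 with D168D. In total RNA from sorted cells, fewer contributing cells and less RNA per cell cannot be told apart.

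**Figure D1:**
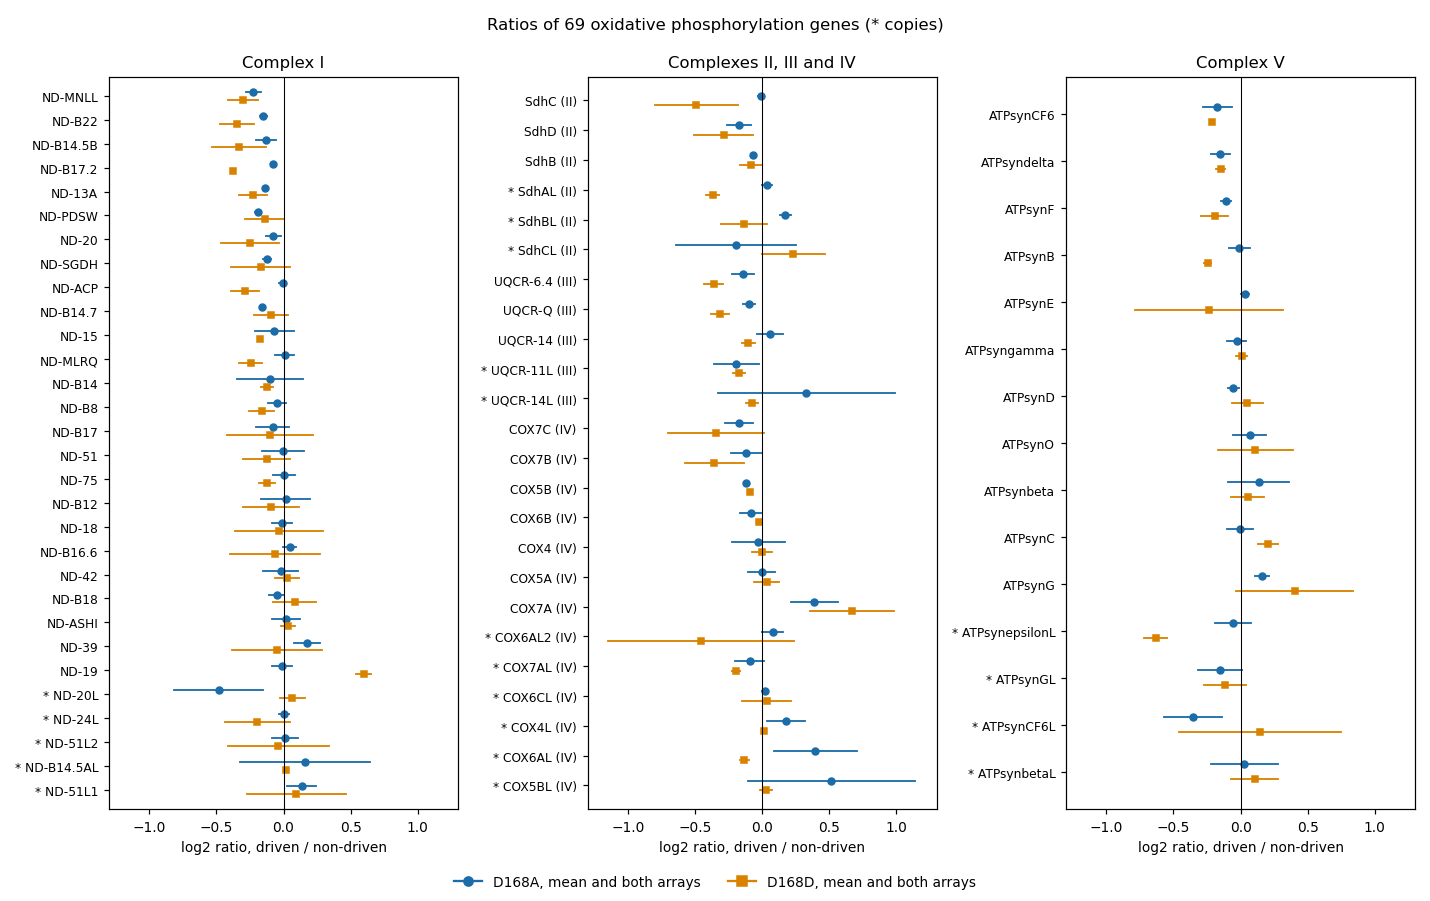
Log2 ratio (driven over non-driven, horizontal axis) of each of the 69 genes, by complex, with copies starred. A marker is the mean of a form and its bar runs from 1 array to the other; most subunits lie left of 0 in both forms, COX7A lies at 0.39 and 0.67, and the longest bars belong to copies, COX6AL2, UQCR-14L and COX5BL.

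The lean below 0 came with small sizes. A lower threshold was set at 0.32 above or below 0 on the log2 scale, on both arrays of a form. Of the 69 genes, 4 passed it with D168D, 2 lower (background 2.15%) and 2 higher (background 3.13%), and 0 passed it with D168A, where 0.694% of all genes were lower and 1.75% higher. These shares lie near the background, and the 4 genes are given below under their complexes. Array medians of the 69 genes were -0.06 and -0.06 in the D168A pair and -0.12 and -0.09 in the D168D pair. All 4 were below 0, and the medians over all genes lay between -0.0022 and 0.01. The form mean was below 0 for 44 of the 69 genes with D168A (46.5% of all genes) and for 48 with D168D (52.7% of all genes). The mean of the 4 arrays was below 0 for 48 genes (50.3% of all genes), and its range ran from -0.34 (ATPsynepsilonL) to 0.53 (COX7A).

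**Figure D2:**
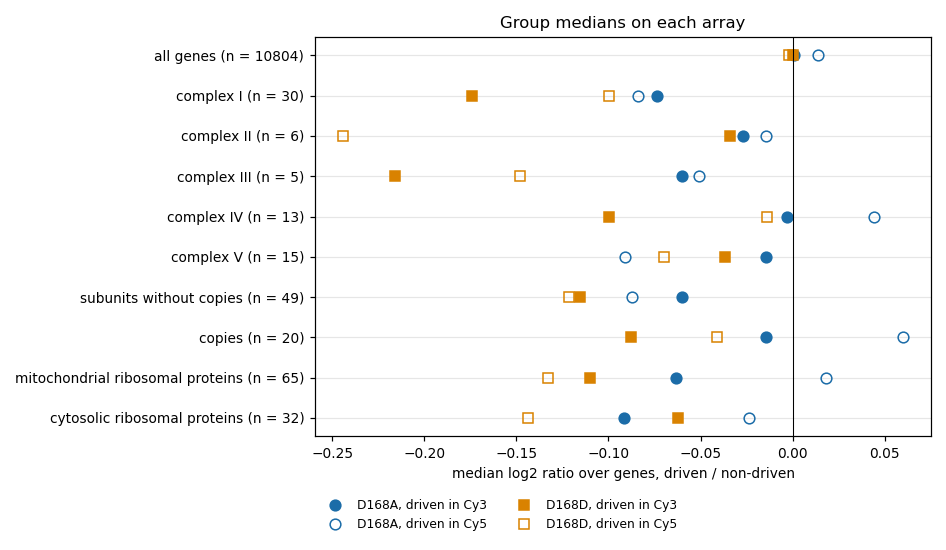
Median log2 ratio on each of the 4 arrays (horizontal axis) for all genes, the complexes, subunits, copies and both ribosomal protein groups. All medians of complexes I, II, III and V lie below 0; complex IV reaches 0.04 and the copies 0.06 on the D168A array with driven RNA in Cy5.

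Complex I, NADH dehydrogenase, takes electrons from NADH in a matrix arm and pumps protons in a membrane arm. Its 30 genes had medians of -0.03 with D168A and -0.12 with D168D over the form means, while the array medians were -0.07 and -0.08 in the D168A pair and -0.17 and -0.10 in the D168D pair. Below 0 on both arrays were 10 of 30 with D168A, against 21.5% of all genes, and 12 of 30 with D168D, against 24.1%. Above 0 on both arrays were 2 of 30 in each form, against 24.4% and 23.3% of all genes. Among its 25 subunits, 6 (24%) lay below 0 on all 4 arrays, against 8.26% of all genes, and 0 above, against 9.33%.

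In the mean over the 4 arrays, the 3 lowest complex I subunits belong to the membrane arm. ND-MNLL (NCBI Gene 31697), a small accessory protein of that arm, was at -0.17 and -0.28 in the D168A pair and -0.42 and -0.19 in the D168D pair. ND-B22 (NCBI Gene 34747), of the LYR-motif family that binds the mitochondrial acyl carrier protein, was at -0.18 and -0.12 in the D168A pair and -0.47 and -0.22 in the D168D pair. ND-B14.5B (NCBI Gene 33528), also of the membrane arm, was at -0.21 and -0.06 in the D168A pair and -0.53 and -0.13 in the D168D pair. All of these lay below 0 on 4 of 4 arrays, with D168D lower than D168A in the means (-0.22 ± 0.06 and -0.30 ± 0.11 for ND-MNLL, -0.15 ± 0.03 and -0.35 ± 0.13 for ND-B22 and -0.13 ± 0.07 and -0.33 ± 0.20 for ND-B14.5B). The median of the 14 membrane-arm subunits was -0.07 with D168A and -0.10 with D168D. In the mean over the 4 arrays their median was -0.11, and that of the 6 accessory subunits of the matrix arm was also -0.11.

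Several membrane-arm subunits face the intermembrane space and carry paired cysteine motifs, among them ND-19, ND-15, ND-B18 and ND-PDSW. ND-PDSW had form means of -0.19 ± 0.02 and -0.14 ± 0.14 and ND-15 of -0.07 ± 0.15 and -0.17 ± 0.01, while ND-B18 was at -0.05 ± 0.06 and 0.08 ± 0.16. ND-19 (NCBI Gene 37946) stood apart from them, at 0.06 and -0.09 in the D168A pair and 0.54 and 0.65 in the D168D pair. Both D168D arrays lay above every D168A array of the gene, and ND-19 was 1 of the 2 genes past the lower threshold, upwards, with D168D, the other being COX7A. It is measured by 1 probe, and its values are printed for all arrays because of their size, a choice made after they were seen.

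Form means of the 14 membrane-arm subunits ran from -0.22 to 0.05 with D168A and from -0.35 to 0.60 with D168D. ND-SGDH was at -0.12 ± 0.03 and -0.17 ± 0.22, ND-B14.7 at -0.16 ± 0.0063 and -0.09 ± 0.12 and ND-B17 at -0.08 ± 0.12 and -0.10 ± 0.32. ND-B12 was at 0.02 ± 0.18 and -0.09 ± 0.21, ND-ASHI at 0.02 ± 0.10 and 0.03 ± 0.05 and ND-42, which has a nucleoside kinase fold, at -0.02 ± 0.13 and 0.02 ± 0.09. ND-B16.6, the fly relative of the human cell death protein GRIM-19, was at 0.05 ± 0.05 and -0.06 ± 0.33. In all 7 of these the D168D arrays lay on opposite sides of 0, so their D168D means carry no direction.

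In the matrix arm, the core subunits ND-75, ND-51 and ND-20 carry the flavin or iron-sulphur clusters of the electron path. ND-20, which holds the last cluster before ubiquinone, was at -0.02 and -0.13 in the D168A pair and -0.46 and -0.03 in the D168D pair. These values lay below 0 on all arrays, although on 2 of them by less than 0.05. On those 2 arrays its 2 probes lay on opposite sides of 0, at 0.15 and -0.19 with D168A and -0.45 and 0.38 with D168D. Neither probe of ND-20 alone was thus below 0 on all arrays. ND-51 (NCBI Gene 33852), which binds NADH and the flavin, was at 0.15 and -0.16 in the D168A pair and -0.30 and 0.05 in the D168D pair, with its arrays on both sides of 0 in either form. ND-75, the largest core subunit, had means of 0.0039 ± 0.08 and -0.12 ± 0.06. In the average of its probes, ND-20 was the only core subunit below 0 on both D168A arrays.

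Of the 6 accessory subunits of the matrix arm, 2 lay below 0 on all arrays, where 8.26% of all genes did. ND-B17.2, which is added late in assembly, was at -0.06 and -0.09 in the D168A pair and -0.36 and -0.39 in the D168D pair. It was 1 of the 2 genes past the lower threshold, downwards, with D168D, with D168A arrays nearer to 0 than either D168D array. ND-13A, a zinc-binding subunit, was at -0.14 ± 0.0011 and -0.23 ± 0.11 in the form means. ND-B8 was at -0.05 ± 0.07 and -0.16 ± 0.09, and ND-B14, an LYR-motif protein like ND-B22, at -0.10 ± 0.25 and -0.12 ± 0.05. ND-18 (-0.01 ± 0.07 and -0.03 ± 0.32) and ND-39 (0.17 ± 0.10 and -0.05 ± 0.34) had D168D arrays on opposite sides of 0. The 6 had a median of -0.06 with D168A and -0.14 with D168D.

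ND-ACP, the mitochondrial acyl carrier protein, sits in both arms and also serves fatty acid and iron-sulphur cluster synthesis. It had form means of -0.0055 ± 0.03 and -0.28 ± 0.10, and its 3 probes had D168D means of -0.33, -0.22 and -0.30, all below 0. ND-MLRQ, whose human counterpart has also been assigned to complex IV, was at 0.0078 ± 0.07 and -0.25 ± 0.09. For both genes the D168A arrays straddled 0 while both D168D arrays lay below it.

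Most complex I copies had arrays far apart in at least 1 form. ND-20L (NCBI Gene 43477), the copy of ND-20, was at -0.15 and -0.81 in the D168A pair and -0.03 and 0.16 in the D168D pair, so that its low D168A mean rests mostly on the array with driven RNA in Cy5. The ND-51 copies ND-51L1 (NCBI Gene 36998) and ND-51L2 (NCBI Gene 36695) instead had arrays further apart with D168D than with D168A. ND-51L1 was at 0.03 and 0.24 in the D168A pair and 0.46 and -0.27 in the D168D pair. ND-51L2 was at -0.09 and 0.11 in the D168A pair and -0.42 and 0.34 in the D168D pair. Both had D168D arrays far apart on either side of 0. ND-24L was at 0.0023 ± 0.04 and -0.20 ± 0.24 in the form means, and ND-B14.5AL at 0.16 ± 0.48 and 0.02 ± 0.01, with probes that disagreed in sign.

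Complex II, succinate dehydrogenase, is also an enzyme of the tricarboxylic acid cycle. Its medians were -0.04 with D168A and -0.21 with D168D, over 6 genes of which 3 are copies. SdhD (NCBI Gene 42808), a membrane anchor, was at -0.08 and -0.26 in the D168A pair and -0.07 and -0.50 in the D168D pair. It was the only member of the complex below 0 on all 4 arrays. Its values average 2 probes, and 1 of them was at 0.17 on the D168A array with driven RNA in Cy3. SdhC (NCBI Gene 41340), the other anchor, was at 0.0044 and -0.03 in the D168A pair and -0.80 and -0.18 in the D168D pair. Its D168D mean of -0.49 ± 0.31 was the lowest among the 49 subunits, with most of that size on the array with driven RNA in Cy3. SdhB (NCBI Gene 35590), which carries the iron-sulphur clusters, was at -0.06 and -0.07 in the D168A pair and 0.0019 and -0.16 in the D168D pair, near 0 throughout.

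The complex II copies lay on either side of 0. SdhBL (NCBI Gene 32887) was at 0.13 and 0.21 in the D168A pair and 0.04 and -0.31 in the D168D pair, above 0 on both D168A arrays. SdhCL (NCBI Gene 41324) was at -0.64 and 0.25 in the D168A pair and 0 and 0.47 in the D168D pair, and its 0 is a value deposited as exactly 0, the only such value among the members. SdhAL (NCBI Gene 39348), a copy of the flavoprotein that oxidises succinate, was at 0.08 and -0.0019 in the D168A pair and -0.32 and -0.42 in the D168D pair, and both of its D168D arrays lay below both D168A arrays. The D168A arrays of SdhCL disagreed in sign, so no direction is given for it.

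Complex III, the cytochrome bc1 complex, was represented by small accessory subunits. All 5 genes lay below 0 on both D168D arrays, where 24.1% of all genes did, and 3 of 5 did so with D168A, where 21.5% did. The complex had medians of -0.10 with D168A and -0.17 with D168D over the form means, while its array medians were -0.06 and -0.05 in the D168A pair and -0.22 and -0.15 in the D168D pair. UQCR-6.4 (NCBI Gene 36991) was at -0.06 and -0.23 in the D168A pair and -0.29 and -0.43 in the D168D pair. UQCR-Q (NCBI Gene 39950), a small membrane subunit, was at -0.14 and -0.05 in the D168A pair and -0.38 and -0.24 in the D168D pair. UQCR-11L (NCBI Gene 246560), a copy of the hinge protein gene, was at -0.03 and -0.36 in the D168A pair and -0.22 and -0.13 in the D168D pair. These gene values were below 0 on 4 of 4 arrays, and for UQCR-6.4 and UQCR-Q both D168D arrays were lower than both D168A arrays. For UQCR-Q and UQCR-11L they are averages of probes that did not all keep that sign. A probe of UQCR-11L lay above 0 where driven RNA was in Cy3, at 0.16 with D168A and 0.11 with D168D. A probe of UQCR-Q was at 0.05 on the D168A array with driven RNA in Cy5.

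UQCR-14 (NCBI Gene 32586) was at -0.04 and 0.16 in the D168A pair and -0.06 and -0.15 in the D168D pair, close to 0 in both forms. Its copy UQCR-14L (NCBI Gene 43369) was at -0.33 and 0.99 in the D168A pair and -0.03 and -0.12 in the D168D pair. The D168A arrays of UQCR-14L lay far apart on either side of 0, so that its D168A mean of 0.33 ± 0.66 rests on the array with driven RNA in Cy5.

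Complex IV, cytochrome c oxidase, had medians nearest to 0 with D168A, at -0.0021 with D168A and -0.02 with D168D. It held the highest member of all. COX7A (NCBI Gene 50002), a small membrane subunit that in mammals has tissue isoforms, was at 0.21 and 0.56 in the D168A pair and 0.36 and 0.98 in the D168D pair. Every array lay above 0, and the form means were 0.39 ± 0.18 and 0.67 ± 0.31. Only 1 probe measures it. Its copy COX7AL (NCBI Gene 40995) was at 0.02 and -0.20 in the D168A pair and -0.16 and -0.22 in the D168D pair, below COX7A on every array.

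Other small membrane subunits of complex IV lay on the other side. COX7B (NCBI Gene 50266) was at -0.23 and -0.0081 in the D168A pair and -0.58 and -0.13 in the D168D pair, below 0 on all arrays. Of its 2 probes, 1 lay above 0 on both arrays with driven RNA in Cy5, at 0.12 with D168A and 0.03 with D168D. COX7C was at -0.17 ± 0.11 with D168A and -0.34 ± 0.36 with D168D, where the array with driven RNA in Cy3 gave -0.70 and its partner 0.02. COX5B (NCBI Gene 33918), a zinc-binding subunit on the matrix side, was at -0.13 and -0.10 in the D168A pair and -0.10 and -0.09 in the D168D pair. Its 2 probes had D168D means of -0.0045 and -0.18, and on each D168D array they lay on opposite sides of 0, so the even D168D values are averages of unlike probes. COX6B, on the intermembrane side, was also below 0 on all arrays, at -0.08 ± 0.08 and -0.02 ± 0.02. With driven RNA in Cy3 it was only just below, at -0.0012 with D168A and -0.003 with D168D. Its 3 probes ran from -0.16 to 0.03 in the mean of the 4 arrays.

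COX4 (NCBI Gene 35279), which in mammals binds ATP and regulates the enzyme, was at -0.23 and 0.17 in the D168A pair and -0.08 and 0.07 in the D168D pair, with the arrays of each form on opposite sides of 0. Its copy COX4L (NCBI Gene 35491) was at 0.04 and 0.32 in the D168A pair and 0.02 and 0.02 in the D168D pair, above 0 on all arrays, on 3 of them by less than 0.05. COX5A was at -0.0021 ± 0.10 and 0.03 ± 0.09. COX5BL (NCBI Gene 33919), the copy of COX5B, was at -0.11 and 1.14 in the D168A pair and 0.08 and -0.01 in the D168D pair. Its value of 1.14 was the highest of any member on any array, and its other 3 arrays lay between -0.11 and 0.08.

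COX6AL (NCBI Gene 246451) was the only member with both D168A arrays on one side of 0 and both D168D arrays on the other, a pattern of 4.91% of all genes. It was at 0.09 and 0.71 in the D168A pair and -0.17 and -0.10 in the D168D pair. The D168A means of its 2 probes were 1.05 and -0.26, and the D168D means 0.34 and -0.61, so they disagreed in sign in both forms. The first probe lay above 0 on all 4 arrays and the second below 0 on all 4. Neither probe alone placed the forms on opposite sides of 0, so that pattern comes from averaging unlike probes. COX6AL2 was at 0.08 ± 0.08 and -0.45 ± 0.69, with -1.15 and 0.24 on the D168D arrays, and COX6CL at 0.02 ± 0.02 and 0.03 ± 0.18.

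Complex V, the ATP synthase, joins a catalytic F1 head in the matrix to a rotor and a stator in the membrane. Its 15 genes had medians of -0.03 with D168A and 0.0072 with D168D, the only complex median above 0, while its array medians were -0.01 and -0.09 in the D168A pair and -0.04 and -0.07 in the D168D pair. The median over form means and the array medians thus differed in sign for D168D. In either form 5 of 15 genes lay below 0 on both arrays, against 21.5% (D168A) and 24.1% (D168D) of all genes. Above 0 on both lay 2 with D168A and 1 with D168D, against 24.4% and 23.3%.

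In the F1 head, ATPsyndelta (NCBI Gene 31950) was at -0.08 and -0.22 in the D168A pair and -0.12 and -0.18 in the D168D pair, below 0 throughout. ATPsynbeta (NCBI Gene 43829), the catalytic subunit, was at 0.36 and -0.09 in the D168A pair and 0.18 and -0.07 in the D168D pair, above 0 where driven RNA was in Cy3 and below 0 where it was in Cy5. Its 4 probes gave -0.13, 0.27, 0.15 and 0.08 in the mean of the 4 arrays. ATPsyngamma, the central shaft, was at -0.03 ± 0.07 and 0.0072 ± 0.04. The copy ATPsynbetaL (NCBI Gene 39761) was at 0.28 and -0.22 in the D168A pair and 0.28 and -0.07 in the D168D pair, with the same order of signs as ATPsynbeta. ATPsynepsilonL (NCBI Gene 326144), a copy of the gene sun, was at -0.19 and 0.08 in the D168A pair and -0.72 and -0.55 in the D168D pair. ATPsynepsilonL was the other gene past the lower threshold, downwards, with D168D, and its mean over the 4 arrays was the lowest of the 69 genes.

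In the stator, which holds the head still, ATPsynCF6 (NCBI Gene 42759) was at -0.07 and -0.28 in the D168A pair and -0.21 and -0.21 in the D168D pair. It was the lowest of the 11 complex V subunits in the mean of 4 arrays. Its copy ATPsynCF6L (NCBI Gene 38592) was at -0.57 and -0.14 in the D168A pair and -0.46 and 0.75 in the D168D pair, with the widest distance between D168D arrays in the complex. ATPsynB was at -0.0091 ± 0.08 and -0.25 ± 0.03, ATPsynD at -0.06 ± 0.04 and 0.05 ± 0.11 and ATPsynO, the oligomycin sensitivity protein, at 0.07 ± 0.12 and 0.11 ± 0.28.

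Among the membrane subunits, ATPsynF (NCBI Gene 37931) was at -0.15 and -0.07 in the D168A pair and -0.29 and -0.09 in the D168D pair, below 0 on all arrays. Of its 2 probes, 1 was at 0.0089 on the D168A array with driven RNA in Cy5. ATPsynC, which forms the rotor ring, was at -0.0049 ± 0.09 and 0.20 ± 0.07, with both D168D arrays above 0. ATPsynG (NCBI Gene 46069) was at 0.21 and 0.11 in the D168A pair and -0.04 and 0.84 in the D168D pair. The 2 probes of ATPsynG gave -0.08 and 0.64 in the mean of the 4 arrays, so its height rests on 1 of them. Its copy ATPsynGL (NCBI Gene 34054) was at -0.32 and 0.0081 in the D168A pair and -0.27 and 0.04 in the D168D pair. ATPsynE was at 0.03 ± 0.03 and -0.23 ± 0.55, the D168D arrays being 0.32 and -0.79.

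A smaller share of the copies than of the subunits lay below 0 on all arrays. Of the 49 subunits, 21 (42.9%) lay below 0 on both D168A arrays, 24 (49.0%) on both D168D arrays and 15 (30.6%) on all 4. Of the 20 copies, 3 (15%), 6 (30%) and 1 (5%) did so. The shares of all genes were 21.5%, 24.1% and 8.26%. The median over the 4 arrays was -0.11 for subunits and 0.0027 for copies, beside -0.0012 for all genes. The median distance of an array from its form mean with D168A was 0.07 for subunits, 0.15 for copies and 0.11 for all genes, and with D168D it was 0.11, 0.13 and 0.16. A larger share of the copies than of the subunits is measured by 1 probe only, and these values take no account of probe number. No test of the difference between subunits and copies was made, since genes are not replicates.

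**Figure D3:**
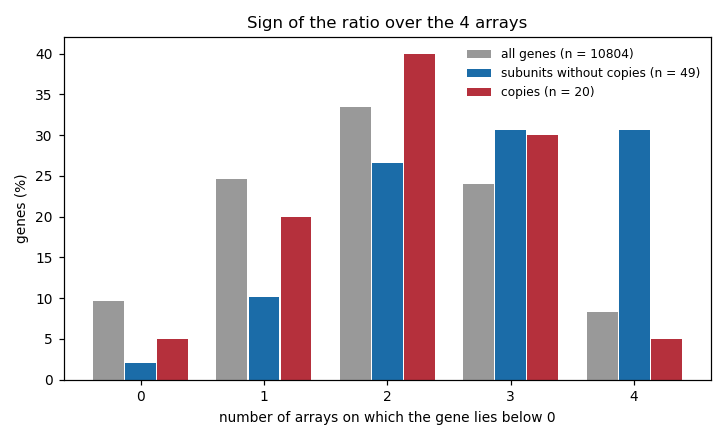
Percentage of genes (vertical axis) by the number of arrays, 0 to 4, on which the gene lies below 0, for all genes, subunits and copies. Subunits below 0 on all 4 arrays make up 30.6%, against 8.26% of all genes and 5% of copies.

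The probes of a gene bear on these small ratios too. Of the 30 members with more than 1 probe, 17 (56.7%) had every probe below 0 in the mean of the 4 arrays, where 26.5% of the 5531 genes with more than 1 probe did. Every probe lay above 0 in 1 member, ATPsynC, and 12 had probes on both sides. The median gap between the highest and lowest probe was 0.13 for the members and 0.17 for all such genes. COX6AL had the widest gap, 1.13, followed by ATPsynG with 0.73.

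The next question was whether any member had a shared shift in the D168A and D168D pairs. In limma over the 2 pair means, with Benjamini-Hochberg adjustment over all 10804 genes, 0 of the 69 members passed an adjusted p under 0.05, where 6 genes (0.0555%) did. At an unadjusted p under 0.05 there were 5 lower members (background 5.16%) and 2 higher ones (background 8%), or 10.1% of the members in all against 13.2% of genes. That share lies near the background. The estimate for COX7A was 0.53 (SE 0.105, unadjusted p = 0.00353, adjusted p = 0.333), with 4 of 4 arrays above 0. ND-MNLL had -0.26 (SE 0.086, unadjusted p = 0.0266, adjusted p = 0.366), with 4 of 4 arrays below 0. The others under 0.05 before adjustment were ND-B22, SdhD, UQCR-6.4 and COX7C, all lower, and ATPsynG, with adjusted p between 0.366 and 0.378 in the same limma fit. Nothing in the labels says that the pairs came from separate collections, so the p-values cover only how far the 2 pairs differ, which may be technical.

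Across the 49 subunits the form means correlated at r = 0.65, and at r = 0.51 without COX7A (48 genes), beside 0.38 over all genes, 0.52 over 65 mitochondrial and 0.44 over 32 cytosolic ribosomal proteins. For the 20 copies r was -0.09. These are descriptions across genes, which share arrays, dyes and hybridisations and are not independent replicates.

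**Figure D4:**
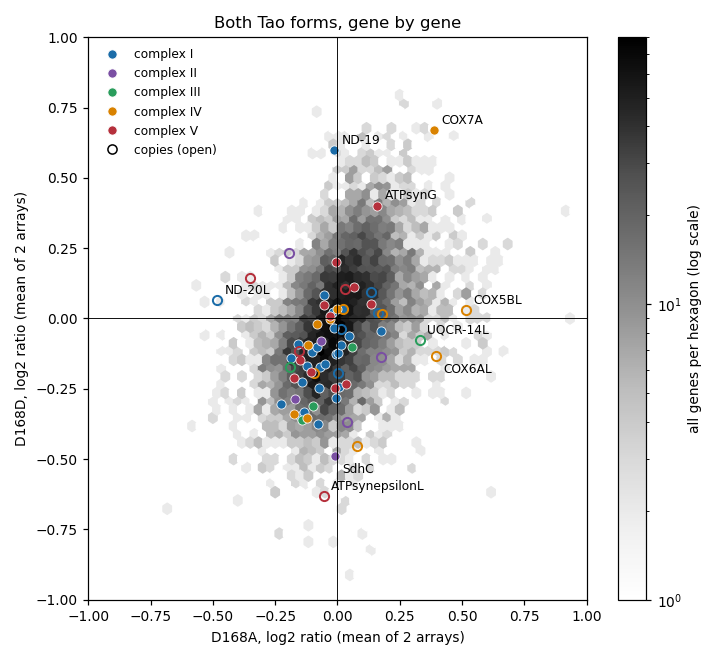
Mean log2 ratio with D168A (horizontal axis) against D168D (vertical axis). Grey hexagons count all genes within the axes on a log scale; filled circles are subunits and open circles copies, by complex, and most subunits lie below 0 on both axes, with COX7A at the upper right.

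The forms were then set against each other within each dye orientation, which removes what both pairs share. No member differed 2-fold between the forms in both orientations, where 0.13% of all genes were higher with D168A and 0.00926% lower. Past 0.32 on the log2 scale in both orientations, 2 members were higher with D168A than with D168D (background 2.55%) and 1 was lower (background 1.68%), shares near the background. ATPsynepsilonL was higher by 0.58 ± 0.04 and SdhAL by 0.41 ± 0.01. ND-19 was at -0.61 ± 0.13 in the same difference. The median difference of D168A minus D168D was 0.08 over the 69 genes and 0.03 over all genes. By complex it was 0.09 (I), 0.21 (II), 0.22 (III), 0.10 (IV) and -0.04 (V). Each form is 1 replicate, so none of these differences was tested.

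Ribosomal proteins, set beside as other large groups of housekeeping genes, gave similar values. The 65 mitochondrial ribosomal proteins, which translate the subunits of mitochondrial DNA, had medians of -0.03 with D168A and -0.12 with D168D, with 15 (23.1%) below 0 on all 4 arrays. The 32 cytosolic ribosomal proteins had medians of -0.04 with D168A and -0.12 with D168D, with 9 (28.1%) below 0 on all 4. The lean below 0 was thus present in these groups too, with shares near the 23.2% of the oxidative phosphorylation genes, against 8.26% of all genes.

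**Figure D5:**
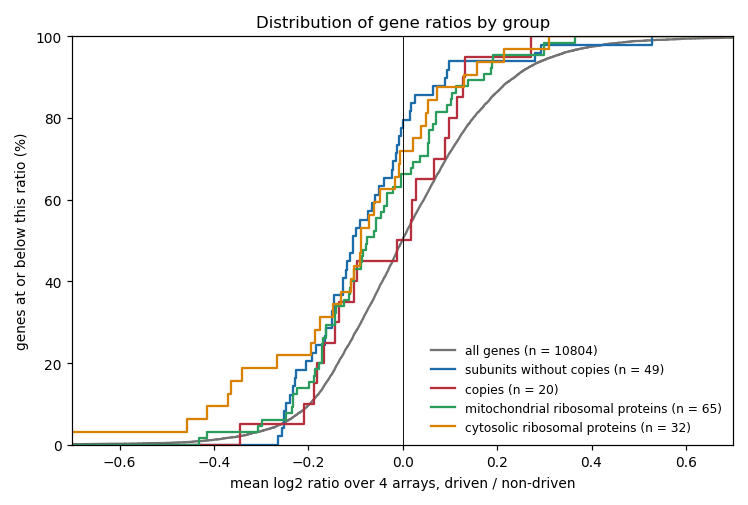
Cumulative percentage of genes (vertical axis) at or below a mean log2 ratio over 4 arrays (horizontal axis). Curves of the 49 subunits and of both ribosomal protein groups lie left of all genes around 0, the curve of the 20 copies crosses it, and 1 cytosolic ribosomal protein lies left of the axis range.

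Genes of the pathway outside those prefixes were read from a list of components and neighbours, and none passed an adjusted p under 0.05 in limma. Complex III and V subunits with other names, 5 of 8 listed, had medians of 0.0045 with D168A and -0.15 with D168D. RFeSP, the Rieske iron-sulphur protein, was at 0.11 ± 0.09 and 0.26 ± 0.27 and Cyt-c1 at -0.10 ± 0.06 and -0.07 ± 0.16. The small complex III subunit ox was at 0.0045 ± 0.10 and -0.38 ± 0.06, blw, the alpha subunit of ATP synthase, at 0.11 ± 0.15 and -0.15 ± 0.20, and sun, its epsilon subunit, at -0.02 ± 0.03 and -0.16 ± 0.02. None of the 5 lay below 0 on all arrays, where 8.26% of all genes did. Of the assembly factors, 6 of 10 were measured and 2 lay below 0 on all arrays (background 8.26%). These were Surf1 (-0.09 ± 0.09 and -0.33 ± 0.11) and Scox (-0.04 ± 0.01 and -0.13 ± 0.11), both of complex IV.

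Genes for the expression and upkeep of mitochondrial DNA (7 of 8 measured) had medians of 0.04 with D168A and 0.05 with D168D. None of them lay below 0 on all arrays, where 8.26% of all genes did. TFAM, which packages that DNA, was at 0.04 ± 0.10 and 0.05 ± 0.21 and the polymerase PolrMT at 0.05 ± 0.14 and -0.03 ± 0.08. Tricarboxylic acid cycle genes (8 of 14 measured) had medians of 0.04 with D168A and -0.05 with D168D. Idh3g, a subunit of isocitrate dehydrogenase, was the 1 gene of 8 below 0 on all arrays (background 8.26%). It was at -0.18 and -0.30 in the D168A pair and -0.29 and -0.64 in the D168D pair. Its limma estimate was -0.36 (SE 0.098, unadjusted p = 0.0142, adjusted p = 0.345). Glycolysis genes (10 of 13 measured) were at -0.05 with D168A and 0.11 with D168D, with 0 below 0 on all arrays (background 8.26%). The hexokinase Hex-A (0.10 ± 0.07 and 0.34 ± 0.01) was the 1 above on all, where 9.33% of all genes were.

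Of the carriers and pores, 3 of 5 were measured. The phosphate carrier Mpcp2 was above 0 on all arrays, at 0.28 and 0.0076 in the D168A pair and 0.36 and 0.58 in the D168D pair, while porin, the outer membrane channel, was at -0.08 ± 0.16 and -0.12 ± 0.00084. Mpcp1 was at 0.23 ± 0.30 and -0.61 ± 0.92. Among regulators (3 of 5 measured), Ets97D, the fly relative of the respiratory factor GABPA, was above 0 on all arrays (0.16 ± 0.13 and 0.36 ± 0.31), Dref below on all (-0.13 ± 0.08 and -0.16 ± 0.09) and foxo at -0.18 ± 0.10 and -0.09 ± 0.57. Over all genes, 9.33% lay above 0 on all arrays and 8.26% below.

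Markers of the sorted cells and of others were read as ratios, since no levels are given. Germ-line markers (6 of 9 measured) had medians of 0.09 with D168A and 0.13 with D168D, and form means from 0.03 to 0.16 and from -0.12 to 0.43. The markers vas, nos and pgc were not analysed here. Muscle markers (5 of 8) had medians of -0.04 with D168A and -0.04 with D168D, fat body and hemocyte markers (8 of 8) of 0.10 with D168A and 0.10 with D168D, midgut and yolk markers (8 of 8) of 0.01 with D168A and -0.07 with D168D, neuron and glia markers (5 of 6) of -0.02 with D168A and 0.05 with D168D and gonadal soma markers (3 of 4) of -0.0069 with D168A and 0.14 with D168D. A deposited 0 occurs in 2 muscle, 1 midgut and yolk and 1 neuron marker. The germ-line medians thus lay above 0 in both forms, though below 0 on both arrays with driven RNA in Cy5, while those of the subunits lay below 0 in both forms, and the part of cell composition in the ratios was not tested.

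Testis genes were listed because of the copies. Of 7 listed, 5 were measured, with medians of -0.01 with D168A and -0.32 with D168D and form means from -0.52 to 0.12 and from -0.72 to 0.08. The meiotic arrest gene topi was at -0.49 and -0.55 in the D168A pair and -0.76 and -0.68 in the D168D pair, below 0 on 4 of 4 arrays, with an adjusted p of 0.268 in limma. The 20 copies had medians of 0.02 with D168A and -0.06 with D168D. Their part in the copies' values was not tested.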

How the data were processed

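What the authors deposited is the log10 ratio of each array feature. Per the submitters' processing notes, Agilent Feature Extraction 7.1 made it. How background, dyes and centring were handled was not given in the sources used here, and neither was the log base, which was taken from that software's usual output. Every 0 on the arrays with driven RNA in Cy3 is written as a negative 0 (446 and 583 features), as a turned sign leaves it, and Tao lies above 0 on all 4 arrays, so values were read as driven over non-driven and no sign was turned. Ratios were converted to log2 and the probes with 1 symbol (17328 of 22575) averaged per gene.

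With 1 replicate per form no test was made within a form. The contrast common to both was tested with limma 3.58.1 (R 4.3.3), two-sided, on 2 pair means with 1 residual degree of freedom per gene. On simulated data for this contrast (10804 genes) it called 100 of 100 genes planted at 2-fold, 100 of 100 at 4-fold and 18 of 10604 unchanged ones. The deviation of each pair was drawn independently from the form differences pooled over all genes. No shift smaller than 2-fold was planted, so the simulation cannot tell how often shifts as small as those of the members would be called. Members and lists were chosen with earlier results of these data known. All members are named. Values on every array are given for the 3 with the largest absolute mean over the 4 arrays among those on the same side of 0 on all 4 in each complex, for any past 1.5-fold on both arrays of a form, for those with forms on opposite sides, for those with a deposited 0 and for pairs of a subunit and its copy. ND-19, ND-B17.2, SdhAL, ATPsynepsilonL and, from other lists, Idh3g, Mpcp2 and topi were added after their values were seen. Alternatives covered thresholds, centring, dye orientation, probes, deposited 0 values and copies.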

Additional observations from a re-analysis of the deposited data

Results flagged for a closer look

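COX6AL, a complex IV copy, was singled out because in the average of its probes both D168A arrays lay above 0 and both D168D arrays below. Of all genes, 4.91% had their forms on opposite sides in this way. Its difference of D168A minus D168D was 0.53 on the log2 scale, with form means of 0.40 ± 0.31 and -0.13 ± 0.03. The difference was not tested. Its 2 probes disagreed in sign in both forms, with D168A means of 1.05 and -0.26 and D168D means of 0.34 and -0.61. The first lay above 0 on all 4 arrays and the second below 0 on all 4, so neither probe alone shows the pattern.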

How the results depend on the processing

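Each ratio already pairs driven with non-driven cells on the same array, but no test within a form was possible because each form has 1 replicate. Of the alternatives, leaving out the copies was chosen after seeing the data where it concerns shares. At 0.32 on the log2 scale, 1.5-fold and 3-fold, 264, 62 and 5 genes were called with D168A (17 at 2-fold), 570, 117 and 6 with D168D (18 at 2-fold) and 458, 89 and 3 for the difference of the forms (15 at 2-fold), by construction. Members among them were 4 with D168D and 3 for the difference, at 0.32 only. Genes called in the limma contrast numbered 3 after centring each array, 15 without genes with a deposited 0 and 0 to 2 on the arrays of 1 dye orientation, in place of 6. The cause was not tested. No member passed in any of these fits, and 1 to 8 did so before adjustment. The count of 1, on the arrays with driven RNA in Cy5, stands beside 783 of all 10804 genes. The count of 8, among the 68 members without a deposited 0, stands beside 1534 of 10333 genes.

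A median was counted as moved where it shifted by over 0.0547, the pooled spread of array medians on the log2 scale. With D168D, complex II was at -0.29 without the member with a deposited 0 and -0.29 without copies, against -0.21, and from -0.244 to -0.0338 on single arrays. Complex III was at -0.31 without copies, against -0.17, and with D168A at -0.0082 by its mean, against -0.10. Complex IV with D168A was at -0.0821 without copies and at 0.0738 by its mean, against -0.0021, and from -0.0031 to 0.0442 on single arrays, and with D168D from -0.0997 to -0.0142 on single arrays. Complex V ran from -0.0913 to -0.0147 on single D168A arrays and from -0.0699 to -0.0366 on single D168D arrays. The sign of the complex V median with D168D is thus unsettled, as is that of complex IV with D168A. The medians of all 69 genes and of complex I were below 0 under every alternative run. After centring each array, 25, 30 and 16 members lay below 0 on both D168A arrays, on both D168D arrays and on all 4 arrays. Over all genes these counts were 2503, 2573 and 927 (2318, 2599 and 892 uncentred). Of 340 recomputed values of single members, 25 moved beyond the spread of their arrays.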
